A study of Homo sapiens with 3 samples.

Results

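Chemokine and IL6-high cells were examined by droplet scRNA-seq in OVCAR3, an established line of human ovarian cancer cells used as a model of high-grade serous disease (HGSOC). The cells had been cultured for 48 hours with DMSO, with 50 μM RAC1i (NSC23766, an inhibitor of the activation of the small GTPase RAC1) or with 50 μM RAC1i and 5 μM EZH2i (GSK126, an inhibitor of the histone methyltransferase EZH2), the last called Combo. DMSO was the solvent of both inhibitors, and each condition was 1 library of 1 culture of 1 cell line. Cells given EZH2i alone were not analysed here. For each cell a score was computed, the unique molecular identifiers (UMIs, each tagging 1 captured transcript) of CXCL1, CXCL2, CXCL3, CXCL8 and IL6 divided by all UMIs of the cell. The members are the top 5% of each library by this score, among cells that had over 1000 genes, at most 20% mitochondrial UMIs, a complexity over 0.8 and at least 5000 UMIs. In DMSO 336 of 6725 cells are members, in RAC1i 460 of 9200 and in Combo 368 of 7354, together 1164 of 23279 cells. All other cells of the same library served as the comparison.

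The 5 score genes encode secreted signals. CXCL1, CXCL2, CXCL3 and CXCL8 are chemokines that attract neutrophils through the receptor CXCR2, and IL6 is a cytokine that acts through IL6R and IL6ST. Their transcription is known to be driven by NF-kB, a family of dimeric factors held in the cytoplasm by inhibitors such as IκBα, with contributions from AP-1 and C/EBP factors. NF-kB also induces its own inhibitors, so that NFKBIA (IκBα) and TNFAIP3 (the ubiquitin editor A20) are read as feedback targets. In ovarian cancer, IL6 and CXCL8 are known as abundant factors of ascites fluid.

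The 4 chemokine genes lie together on chromosome 4, with 359 kb between the outer ends of CXCL8 and CXCL2, and IL6 is on chromosome 7. The 250 bases before the RefSeq start of each score gene are shown because the score rests on these 5 genes. Capitals mark matches to the NF-kB consensus, searched on both strands, and in CXCL8, which has no such match, the letters GGAATTTCC. In CXCL1, CXCL2 and CXCL3 the capitals hold 2 overlapping matches, 1 on each strand.
CXCL1, chr4:73869143-73869392, plus strand: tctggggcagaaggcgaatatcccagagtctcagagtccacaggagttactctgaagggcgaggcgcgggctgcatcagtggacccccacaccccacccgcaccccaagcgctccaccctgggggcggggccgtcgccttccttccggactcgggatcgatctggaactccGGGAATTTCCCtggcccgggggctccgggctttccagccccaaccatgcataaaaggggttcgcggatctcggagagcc
CXCL2, chr4:74099196-74099445, minus strand: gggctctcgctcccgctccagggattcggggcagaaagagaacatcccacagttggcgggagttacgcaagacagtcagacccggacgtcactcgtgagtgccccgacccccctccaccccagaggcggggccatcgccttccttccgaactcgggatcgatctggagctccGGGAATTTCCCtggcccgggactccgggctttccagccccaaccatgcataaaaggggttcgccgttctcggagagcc
CXCL3, chr4:74038690-74038939, minus strand: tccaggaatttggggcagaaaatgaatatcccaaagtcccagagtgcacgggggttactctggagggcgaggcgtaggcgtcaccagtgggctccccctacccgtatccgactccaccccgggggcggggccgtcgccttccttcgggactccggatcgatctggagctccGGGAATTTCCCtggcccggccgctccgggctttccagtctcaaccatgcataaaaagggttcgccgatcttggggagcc
CXCL8, chr4:73740319-73740568, plus strand: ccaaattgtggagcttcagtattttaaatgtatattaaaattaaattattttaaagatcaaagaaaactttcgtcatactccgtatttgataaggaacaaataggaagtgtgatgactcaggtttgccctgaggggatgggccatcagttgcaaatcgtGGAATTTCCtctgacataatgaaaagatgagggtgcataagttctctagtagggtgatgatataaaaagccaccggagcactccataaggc
IL6, chr7:22726950-22727199, plus strand: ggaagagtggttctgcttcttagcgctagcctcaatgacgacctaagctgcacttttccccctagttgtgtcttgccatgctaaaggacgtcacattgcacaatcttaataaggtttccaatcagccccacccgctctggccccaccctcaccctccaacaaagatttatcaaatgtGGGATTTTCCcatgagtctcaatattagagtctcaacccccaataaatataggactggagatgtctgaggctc
These sequences are on GRCh38.p14 and are written 5′ to 3′ on the strand of the gene. The capitals begin 79 bases before the start of CXCL1, 78 before CXCL2, 79 before CXCL3, 91 before CXCL8 and 73 before IL6. The longest run shared by CXCL1 and CXCL2 was 42 bases, and that shared by CXCL2 and CXCL3 was 37 bases, whereas CXCL8 shared at most 9 bases with CXCL1, namely GGAATTTCC. Of 35116 promoters in the RefSeq table, 9.96% held the NF-kB consensus in these 250 bases and 0.413% held GGAATTTCC on either strand. A match of letters is not a measured binding site.

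Median depth was close in members and other cells, but larger in members of DMSO and smaller in members of RAC1i and Combo. The median was 31649 UMIs per member and 28627 per other cell in DMSO, 21468 and 23111 in RAC1i, and 26191 and 27643 in Combo. The median mitochondrial share was 6.46% in members and 5.91% in other cells of DMSO and between 1.36% and 1.54% in the 4 groups of the treated libraries, so DMSO stood apart from the treated libraries in this measure. Pairs of libraries shared between 9 and 18 barcodes among these cells, and no barcode was a member in 2 libraries. Members were cells of the same epithelial line by their markers. EPCAM, an epithelial adhesion molecule, stood at 326 CPM (UMIs of a gene per 1000000 UMIs, summed over the cells) in members and 321 CPM in other cells of DMSO, 255 and 276 CPM in RAC1i, and 267 and 305 CPM in Combo. The 10 leukocyte markers summed to between 4.54 and 11.9 CPM in members, with at most 7.63 CPM for any of them, and the leukocyte gene PTPRC had no UMI in members of any library, a count that allows up to 3 UMIs. The 10 fibroblast and mesothelial markers summed to at most 6.61 CPM and the 6 endothelial markers to at most 4.86 CPM in members.

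The score genes chose the members, so their levels describe the selection and were not tested. In DMSO the lowest member had a score of 263.8 CPM and the highest other cell 260.8 CPM, in RAC1i these were 2481 and 2480 CPM, and in Combo 1541 and 1537 CPM. The members are therefore the upper end of a range without a gap. The same 5% stood for different levels in the libraries, since 5219 RAC1i cells (56.7%) and 2868 Combo cells (39.0%) reached the lowest score of a DMSO member. Members held 61.7% of all score UMIs in DMSO but 30.6% in RAC1i and 33.8% in Combo. A member carried a median of 15 score UMIs in DMSO, 81 in RAC1i and 59 in Combo.

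CXCL1 made up most of the score. It gave 76.0% of the score UMIs of members in DMSO, 69.9% in RAC1i and 74.4% in Combo. Its level was 538 CPM in members and 16.7 CPM in other cells of DMSO, 2983 and 314 CPM in RAC1i, and 1966 and 166 CPM in Combo, ratios of 32.2, 9.50 and 11.8. CXCL8 was the score gene most concentrated in members, with 51.3 CPM against 0.705 CPM in DMSO, 495 against 12.2 CPM in RAC1i and 199 against 5.16 CPM in Combo, ratios of 72.8, 40.4 and 38.6. CXCL2 was at 58.8, 172 and 101 CPM in members and CXCL3 at 41.8, 172 and 129 CPM, with ratios between 9.83 and 18.6 over both genes and all libraries.

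**Figure D1:**
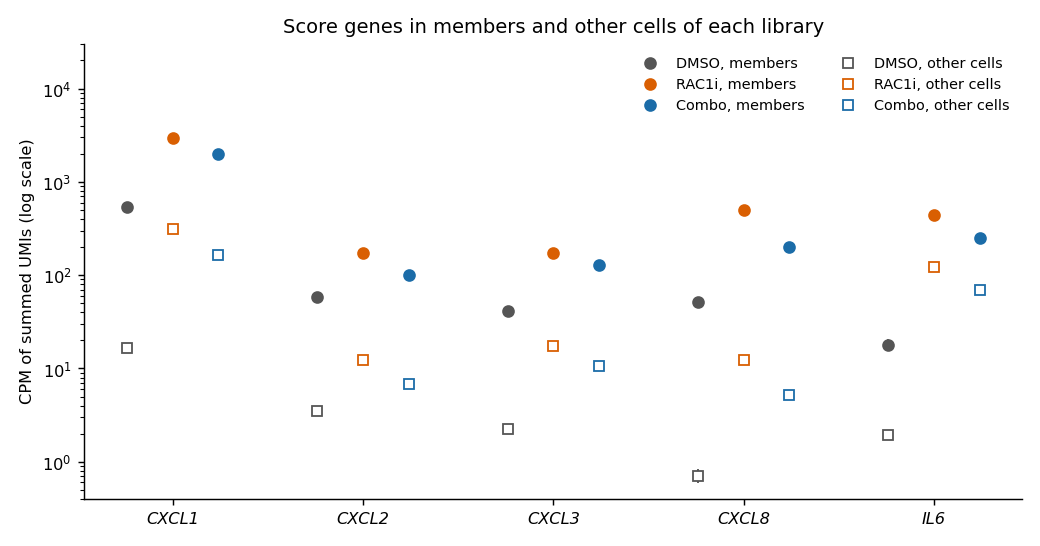
CPM of the 5 score genes (log axis) in members (filled circles) and in the other cells (open squares) of the DMSO, RAC1i and Combo libraries, with exact 95% Poisson intervals that are mostly smaller than the symbols. Every filled circle lies above the open square of its library, and the gap is widest for CXCL8 and narrowest for IL6. Members were chosen by the summed UMIs of these genes.

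IL6 fitted the name of these cells least in DMSO. It was at 18.0 CPM in members and 1.93 CPM in other cells of DMSO, 446 and 122 CPM in RAC1i, and 249 and 68.6 CPM in Combo, ratios of 9.29, 3.65 and 3.62. Only 53 of 336 DMSO members (15.8%) had a UMI of IL6, compared to 433 of 460 (94.1%) in RAC1i and 309 of 368 (84.0%) in Combo. After each cell was thinned to 5000 UMIs these shares were 4.17%, 74.6% and 53.3%, and 0.923%, 37.7% and 25.1% in other cells. A single DMSO member held 42 of the 190 IL6 UMIs of all DMSO members. The DMSO members are thus CXCL1-high cells of which few had detected IL6. All 5 score genes were detected in 11 DMSO members (3.27%), 217 RAC1i members (47.2%) and 107 Combo members (29.1%). The line holds no cell type known to lack these genes, so background from free RNA could not be measured apart.

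All other genes were then compared between members and other cells of the same library. A gene was counted as higher or lower when the ratio of its CPM passed 1.5-fold and it reached 20 CPM in the higher of the 2 groups. Since cells of 1 culture are not replicates, no test was made, and the intervals below are exact 95% intervals that cover counting error only. In DMSO 88 of 6029 genes (1.46%) were higher in members and 8 (0.133%) were lower. In RAC1i 232 of 5414 genes (4.29%) were higher and 217 (4.01%) lower, and in Combo 194 of 5430 (3.57%) were higher and 289 (5.32%) lower. After TMM scaling the numbers for Combo turned to 238 higher and 184 lower. In all 3 libraries 36 of 4651 genes (0.774%) were higher and none was lower (0%), and in both RAC1i and Combo 153 of 5237 genes (2.92%) were higher and 138 (2.64%) lower. Each of the 36 genes had an interval above 1 in every library, and 25 had an interval above 1.5 in every library. Without the single member with most UMIs of the gene, 32 of the 36 stayed past 1.5-fold in all libraries, and 4 fell short in DMSO, namely ARRDC3 (1.45), CAV2 (1.498), EFNA1 (1.42) and PPP1R15A (1.48). RAC1i and Combo were compared with their own other cells, so no control cells are shared between these counts. The median log2 ratio over all genes counted was 0.01 for DMSO, −0.11 for RAC1i and −0.13 for Combo.

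Besides the score genes, members were higher in some other chemokine and cytokine genes. Of 34 further chemokines and cytokines, 6 reached 20 CPM in DMSO, 10 in RAC1i and 7 in Combo, and 3, 7 and 4 of these were higher, beside 1.46%, 4.29% and 3.57% of all genes. The list's median log2 ratio was 0.68, 1.73 and 0.86. AREG, an EGF receptor ligand encoded on the same arm of chromosome 4 as the chemokines, and CD70, a ligand of the TNF family, were higher in every library. Among cells with a chromosome 3 share of 0.9% or more (a class described further on), neither call held in all libraries, since CD70 in DMSO had a ratio of 1.12 and AREG, with ratios of 3.13, 2.84 and 2.64, was under 20 CPM in RAC1i. AREG stood at 30.9 CPM in members and 7.14 CPM in other cells of DMSO, 32.2 and 7.93 CPM in RAC1i, and 31.5 and 9.58 CPM in Combo. Its ratios were 4.33 (95% interval 3.82 to 4.89), 4.06 (3.61 to 4.55) and 3.29 (2.91 to 3.71). One library leaned on few cells, as 1 DMSO member held 105 of the 327 AREG UMIs, and without it the DMSO ratio was 2.96.

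CCL20, a chemokine that attracts CCR6-bearing lymphocytes and dendritic cells, was among the genes most concentrated in members of the treated libraries. It stood at 76.5 CPM in members and 5.25 CPM in other cells of RAC1i, and at 55.3 and 2.84 CPM in Combo, ratios of 14.6 (13.3 to 15.9) and 19.5 (17.3 to 21.9). In DMSO it was below 20 CPM, at 17.3 and 0.0969 CPM, and 10 of 336 members had a UMI of it, 1 of them holding 98 of 183 UMIs. TNF, the cytokine that itself activates NF-kB, was at 268 and 72.2 CPM in RAC1i and 172 and 44.9 CPM in Combo, ratios of 3.71 (3.56 to 3.86) and 3.84 (3.64 to 4.04), and at 11.5 and 1.44 CPM in DMSO. PTX3, a secreted pentraxin, was at 19.7 and 1.02 CPM in DMSO, 63.0 and 13.7 CPM in RAC1i, and 64.7 and 11.9 CPM in Combo. These 3 genes were thus higher in members in every library, but in DMSO at levels under the minimum of the counts.

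The neighbours of the chemokine genes on chromosome 4 differed among themselves. CXCL6, a further neutrophil chemokine of the cluster, was at 1.80, 3.67 and 2.61 CPM in members against 0.194, 0.797 and 0.470 CPM in other cells of DMSO, RAC1i and Combo, ratios of 9.26, 4.60 and 5.55 at low levels. RASSF6, the nearest gene listed on the CXCL8 side, was also low and higher in members, at 3.31, 2.57 and 2.11 CPM against 1.57, 0.498 and 0.420 CPM, ratios of 2.11, 5.15 and 5.02. ANKRD17, further out on the CXCL8 side of the cluster, had ratios of 1.11, 0.96 and 0.863, and MTHFD2L, beside CXCL2, had ratios of 1.23, 1.03 and 1.14. RASSF6 and CXCL6 thus had higher levels in members, while ANKRD17 and MTHFD2L stayed under 1.5-fold.

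Few receptors of these signals reached the minimum. Of 30 receptors and sensors of inflammatory ligands, 10, 6 and 6 reached 20 CPM in DMSO, RAC1i and Combo, and 1, 2 and 2 of these were higher in members, with the same shares of all genes as background. CXCR2, the chemokine receptor, had no UMI in members of any library, which allows up to 3 UMIs. IL6ST, the signalling chain of the IL6 receptor, was at 35.2 and 27.8 CPM in members and other cells of DMSO, 74.5 and 52.1 CPM in RAC1i, and 71.7 and 50.6 CPM in Combo, under 1.5-fold in each. TNFRSF10B, a death receptor for TRAIL, and IFNGR2, a chain of the interferon gamma receptor, were higher in RAC1i with ratios of 1.86 and 2.02, and in Combo with ratios of 1.87 and 2.11. The receptor that was higher in DMSO was IL1R1, the receptor of interleukin 1, at 112 and 71.3 CPM, a ratio of 1.58 (1.48 to 1.67).

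Feedback genes and targets of NF-kB formed the list with the most higher genes. Of 39 genes, 16, 24 and 24 reached 20 CPM in DMSO, RAC1i and Combo, and 7 (with 1.46% of all genes as background), 20 (4.29%) and 19 (3.57%) of these were higher. The median log2 ratio of the list was 0.57, 1.00 and 0.98. NFKBIA, TNFAIP3, IER3, IRF1, C3 and PLAU were higher in all 3 libraries. TNIP2, an A20-binding inhibitor, was the gene of the list that was lower, in Combo, with a ratio of 0.588. The list was chosen with earlier results of these data known.

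TNFAIP3 had the largest ratio in DMSO among the genes of this list that reached 20 CPM. It was at 22.1 CPM in members and 2.76 CPM in other cells of DMSO, 203 and 63.3 CPM in RAC1i, and 137 and 44.2 CPM in Combo. The ratio of 8.02 (6.84 to 9.38) in DMSO lay above those of 3.21 (3.07 to 3.36) in RAC1i and 3.10 (2.93 to 3.29) in Combo, and its interval did not overlap theirs. NFKBIA stood at 250.5 and 100.5 CPM in DMSO, 1624 and 961 CPM in RAC1i, and 1633 and 905 CPM in Combo, ratios of 2.49 (2.39 to 2.60), 1.69 (1.66 to 1.72) and 1.80 (1.78 to 1.83). The level of NFKBIA in the other cells of RAC1i and Combo was therefore above that of the DMSO members. IER3, an early response gene that affects survival, was at 145 and 50.9 CPM in DMSO, 1209 and 380.3 CPM in RAC1i, and 930 and 274 CPM in Combo, with ratios of 2.85, 3.18 and 3.39.

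IRF1, a transcription factor of interferon and TNF responses, had ratios of 1.78, 2.51 and 2.42 in DMSO, RAC1i and Combo. C3, the central complement component, had ratios of 1.86, 1.75 and 2.15. Genes of NF-kB subunits and their partners passed 1.5-fold in the treated libraries. NFKB1 (p105/p50) was at 127 and 52.2 CPM in RAC1i and 90.3 and 36.9 CPM in Combo, compared to 30.5 and 20.7 CPM in DMSO, ratios of 2.43, 2.45 and 1.48. NFKB2, REL, RELB and BCL3 had ratios between 1.51 and 2.64 in RAC1i and Combo. ICAM1, an adhesion molecule for leukocytes, was at 81.1 and 16.0 CPM in RAC1i and 54.9 and 11.2 CPM in Combo, ratios of 5.07 (4.70 to 5.46) and 4.89 (4.44 to 5.37), and at 6.33 and 2.29 CPM in DMSO. SAA1, an acute phase protein, stayed under 20 CPM but was at 15.8 CPM in members and 0.409 CPM in other cells of DMSO, and at no more than 0.904 CPM in either group of RAC1i and Combo. In DMSO 22 members had a UMI of it, and 1 of them held 66 of 167 UMIs. It was named after its values were seen.

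AP-1 and immediate early factors were mostly higher in the treated libraries. Of 32 genes, 20, 23 and 21 reached 20 CPM, and 5, 17 and 17 of these were higher in DMSO, RAC1i and Combo (1.46%, 4.29% and 3.57% of all genes), with medians of 0.34, 0.80 and 0.79 on the log2 scale. KLF10, ZFP36L1, PPP1R15A and CEBPD were higher in all 3 libraries, PPP1R15A in DMSO only with the member that held 7 of its 296 UMIs. KLF10, a zinc finger repressor induced by TGF-beta, stood at 29.5 and 8.96 CPM in DMSO, 1129 and 443 CPM in RAC1i, and 1055 and 441 CPM in Combo, ratios of 3.29, 2.55 and 2.39. CEBPD, a C/EBP factor, had ratios of 1.64, 2.68 and 2.69, and ATF3, a stress-induced factor of the ATF family, had ratios of 2.54 in RAC1i and 2.39 in Combo. JUN, in contrast, stayed under 1.5-fold, with ratios of 1.20, 1.34 and 1.20. ERK feedback genes, which restrain MAP kinase signalling, could be read in the treated libraries, where 8 of 13 were higher in RAC1i and 8 of 11 in Combo, while 1 of 16 reached 20 CPM in DMSO. DUSP4, DUSP5, DUSP6, DUSP10, SPRY1 and PHLDA1 were higher in both treated libraries, and DUSP8 was lower in Combo.

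Of the list of epithelial adhesion, laminin and integrin genes, 1 of 19, 2 of 18 and 4 of 16 were higher in DMSO, RAC1i and Combo, beside 1.46%, 4.29% and 3.57% of all genes, and 1 was lower in Combo, with medians of 0.18, 0.10 and 0.07, and CLDN1 was its gene that was higher in all 3 libraries. Further genes are named by the size of their ratios. PLAU, the urokinase that activates plasminogen, was at 87.8 CPM in members and 19.3 CPM in other cells of DMSO, 84.4 and 12.8 CPM in RAC1i, and 49.0 and 11.5 CPM in Combo. Its ratios were 4.55 (4.23 to 4.90), 6.59 (6.11 to 7.10) and 4.25 (3.85 to 4.69), the largest of the 36 genes by the library nearest to no change. CLDN1, a tight junction claudin, was at 99.6 and 28.8 CPM in DMSO, 130 and 28.4 CPM in RAC1i, and 84.9 and 18.5 CPM in Combo, ratios of 3.46 (3.24 to 3.70), 4.57 (4.31 to 4.84) and 4.59 (4.26 to 4.95). The level of PLAU in members was thus lowest in Combo, and that of CLDN1 was highest in RAC1i. CLDN16, its neighbour on chromosome 3, had ratios of 2.42, 2.70 and 2.86. The other claudins were not alike, as CLDN3 had ratios of 0.971, 0.932 and 0.776, and CLDN4 of 1.04, 1.22 and 1.13. F2RL1, a receptor cleaved by proteases, had ratios of 1.92, 3.05 and 2.83. AMIGO2, an adhesion molecule, had ratios of 2.02, 2.12 and 2.02.

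**Figure D2:**
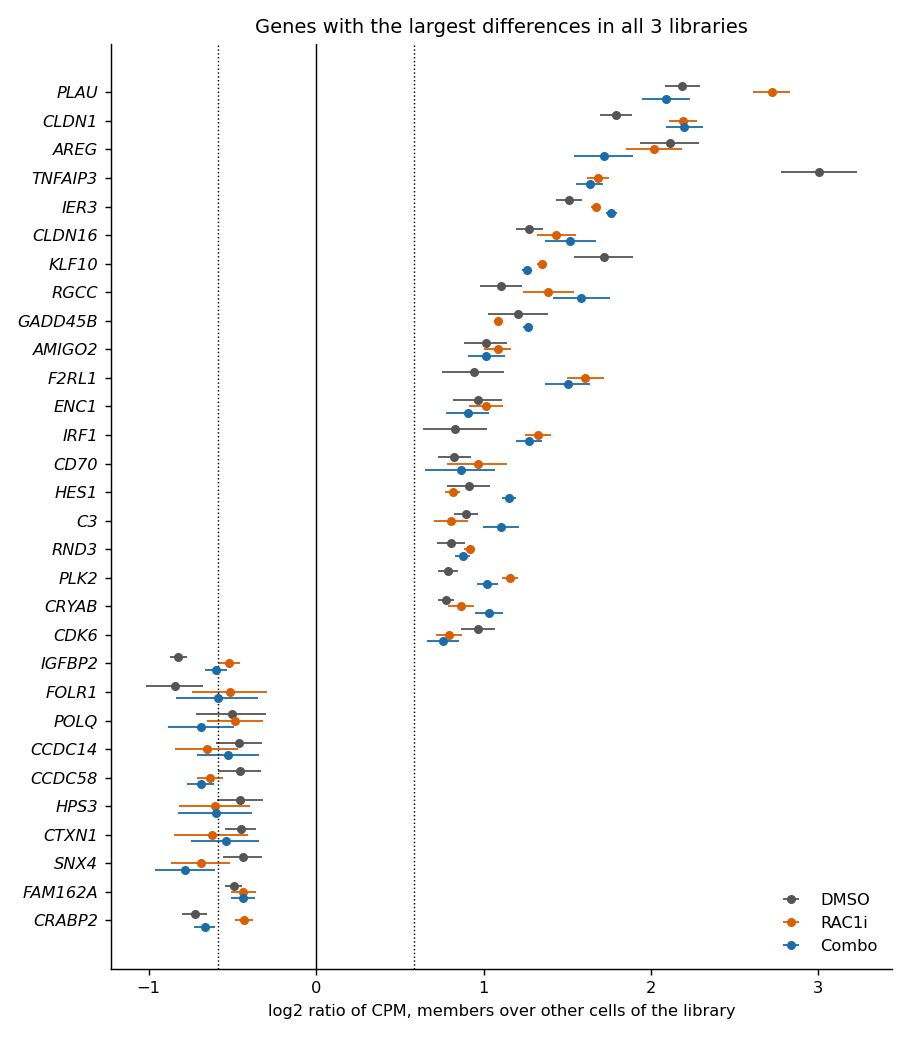
Log2 ratio of CPM in members over other cells, with exact 95% intervals, for the 20 genes with the largest and the 10 with the smallest ratios by the library nearest to no change (points for DMSO, RAC1i and Combo, dotted lines at 1.5-fold). PLAU, CLDN1 and AREG have ratios of at least 3.29 in all 3 libraries, TNFAIP3 lies furthest right in DMSO with 8.02 and further left in the treated libraries, and no gene at the bottom passes the left dotted line in every library.

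The remaining genes of the 20 belonged to several functions. GADD45B, a stress sensor of the p38 and JNK pathways, was at 27.9 and 12.1 CPM in DMSO, 1226 and 577 CPM in RAC1i, and 1266 and 527 CPM in Combo, ratios of 2.31, 2.12 and 2.40. HES1, a repressor downstream of Notch, was at 52.8 and 28.1 CPM in DMSO, 400.4 and 227 CPM in RAC1i, and 525 and 237 CPM in Combo, ratios of 1.88, 1.76 and 2.22. PLK2, a polo-like kinase induced by p53, had ratios of 1.73, 2.23 and 2.03. Ratios also passed 1.5-fold in every library for RGCC (2.15, 2.62 and 3.0), ENC1 (1.95, 2.02 and 1.87), RND3 (1.75, 1.89 and 1.83), CRYAB, a small heat shock protein (1.71, 1.82 and 2.05), and CDK6, a G1 kinase (1.95, 1.73 and 1.69). EFNA1, CAV1 and TCIM were among the 36 genes but not among these 20. EFNA1, an ephrin ligand, had ratios of 1.51 (1.42 without 1 member that held 27 of 424 UMIs), 3.06 and 3.0, and CAV1, the coat protein of caveolae, of 1.58, 2.69 and 2.91. Both ratios were larger in the treated libraries. TCIM had the widest range of ratios among the 36 genes, with 52.8 and 33.5 CPM in DMSO, 36.2 and 4.62 CPM in RAC1i, and 23.0 and 3.14 CPM in Combo, ratios of 1.58 (1.44 to 1.72), 7.84 (6.96 to 8.82) and 7.32 (6.26 to 8.53).

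Of the 36 genes, 26 had a promoter in the RefSeq table, and 8 of these (30.8%) held the NF-kB consensus in the 250 bases before the start, compared to 9.96% of all promoters. They were CLDN1, TNFAIP3, GADD45B, IRF1, NFKBIA, GRAMD2B, CITED2 and CAV1. PLAU, AREG, CLDN16, F2RL1, HES1 and PLK2 were among those without a match in this window. The share of 30.8% counts genes, whereas that of 9.96% counts promoters, including those of genes under 20 CPM. These shares are therefore not like for like, and no enrichment is read from them. The 36 genes were chosen from these data, so the share of 30.8% is a description.

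The integrated stress response, NRF2 targets and ferritins, glycolysis and cholesterol synthesis had median log2 ratios between −0.17 and 0.23 in all libraries. In DMSO, RAC1i and Combo, 9, 5 and 6 stress response genes and 8, 5 and 5 NRF2 targets and ferritins reached 20 CPM. So did 13, 11 and 12 genes of glycolysis and 18, 9 and 10 of cholesterol synthesis. Of these, 1 stress response gene passed 1.5-fold, upward in Combo. Beside this, 1.46%, 4.29% and 3.57% of all genes were higher and 0.133%, 4.01% and 5.32% lower. At such shares few genes would pass in lists of this size, so no result is read from the counts. For metallothioneins, which bind zinc and copper, the medians were 0.30, 0.47 and 0.26, beside 0.01, −0.11 and −0.13 over all genes. Of the 3, 4 and 4 metallothioneins that reached 20 CPM, none was higher and 1 was lower, MT1G in Combo, beside the same shares of all genes. Of 34 genes of the interferon response and MHC class I, 14, 12 and 12 reached 20 CPM, and 1, 2 and 3 were higher while 0, 2 and 2 were lower. Of all genes, 1.46%, 4.29% and 3.57% were higher and 0.133%, 4.01% and 5.32% lower. TAP1, a peptide transporter of antigen presentation, was higher in both treated libraries, with ratios of 1.89 in RAC1i and 2.00 in Combo. ISG15, an interferon-induced ubiquitin-like protein, was instead lower there, at 37.1 and 69.7 CPM in RAC1i and 45.2 and 91.2 CPM in Combo. In DMSO the ratio of ISG15 was 1.09. Among UCA1, CA2, IER3, FLG, CD70 and CLDN1, 4 of 6 were higher in DMSO and 5 of 6 in each treated library, beside the same shares of all genes. These genes were taken from the study's own immune cluster of these same libraries, and so are no independent evidence.

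Some genes of proliferation were lower in members of the treated libraries. Of 27 genes of G2 and mitosis, 0 were higher in any library, and 0 of 27, 5 of 25 and 9 of 25 were lower in DMSO, RAC1i and Combo, beside 0.133%, 4.01% and 5.32% of all genes. Most genes of the list therefore did not pass 1.5-fold. The list's median log2 ratio was −0.08, −0.43 and −0.48, beside 0.01, −0.11 and −0.13 over all genes. AURKA, a mitotic kinase, was at 67.0 CPM in members and 82.6 CPM in other cells of DMSO, 36.5 and 75.8 CPM in RAC1i, and 41.0 and 71.9 CPM in Combo, ratios of 0.811 (0.751 to 0.875), 0.481 (0.435 to 0.532) and 0.570 (0.515 to 0.629). CCNB2 and PLK1 were the other genes lower in both treated libraries. For S phase genes 0 of 20, 4 of 14 and 2 of 16 were lower and the medians were −0.08, −0.29 and −0.31, and RRM1 and HELLS, of nucleotide synthesis and chromatin at replication, were lower in both treated libraries with ratios between 0.638 and 0.664. After TMM scaling the ratios of all genes moved by −0.05 in DMSO, 0.04 in RAC1i and 0.07 in Combo on the log2 scale.

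No gene was lower by over 1.5-fold in all 3 libraries, and the lowest genes were described by their values. IGFBP2, a secreted binding protein of insulin-like growth factors, was at 317 CPM in members and 561 CPM in other cells of DMSO, 189 and 271 CPM in RAC1i, and 183 and 277 CPM in Combo, ratios of 0.565 (0.546 to 0.585), 0.698 (0.667 to 0.729) and 0.660 (0.630 to 0.692). FOLR1, the folate receptor of serous tumours, was at 28.3 and 50.9 CPM in DMSO, 15.7 and 22.4 CPM in RAC1i, and 14.5 and 21.7 CPM in Combo. CRABP2, a carrier of retinoic acid, had ratios of 0.605, 0.741 and 0.631. The lineage list of serous and fallopian secretory cells as a whole had medians of −0.11, −0.17 and −0.19. Of its genes 1 of 11, 1 of 9 and 1 of 9 were lower, beside 0.133%, 4.01% and 5.32% of all genes. The number higher was 0 in each library, beside 1.46%, 4.29% and 3.57% of all genes. PAX8, its lineage factor, had ratios of 0.987, 0.775 and 0.846. Members thus kept EPCAM and PAX8 within 1.5-fold of the other cells.

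Of the 10 genes with the smallest ratios in all libraries, 6 (POLQ, CCDC14, CCDC58, HPS3, SNX4 and FAM162A) lay between 120 and 160 Mb on chromosome 3 (GRCh38). This was noticed after the values were seen. Genes were then summarised in windows of 20 Mb over the genes that reached 20 CPM in every library, and of 139 windows the 2 of this stretch had the lowest medians in each library. After subtraction of the median of all genes, the window from 120 to 140 Mb had a median log2 ratio of −0.29 for DMSO, −0.25 for RAC1i and −0.33 for Combo, and the window from 140 to 160 Mb had −0.26, −0.25 and −0.33. The lowest of the other windows was at −0.18, −0.16 and −0.15. In DMSO this was the window from 100 to 120 Mb of chromosome 3, directly beside the stretch. There the medians of 5 Mb windows in DMSO already fell from −0.13 at 95 Mb to −0.23 at 115 Mb. Of the 86 genes in the stretch, 80, 70 and 77 lay below the median of all genes. Lower RNA in members was thus spread over many neighbouring genes of this stretch, but not over all. PTX3 also lies in it and was higher in members, with ratios of 19.3, 4.58 and 5.44. It was under 20 CPM in DMSO and so was not among the 86 genes.

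**Figure D3:**
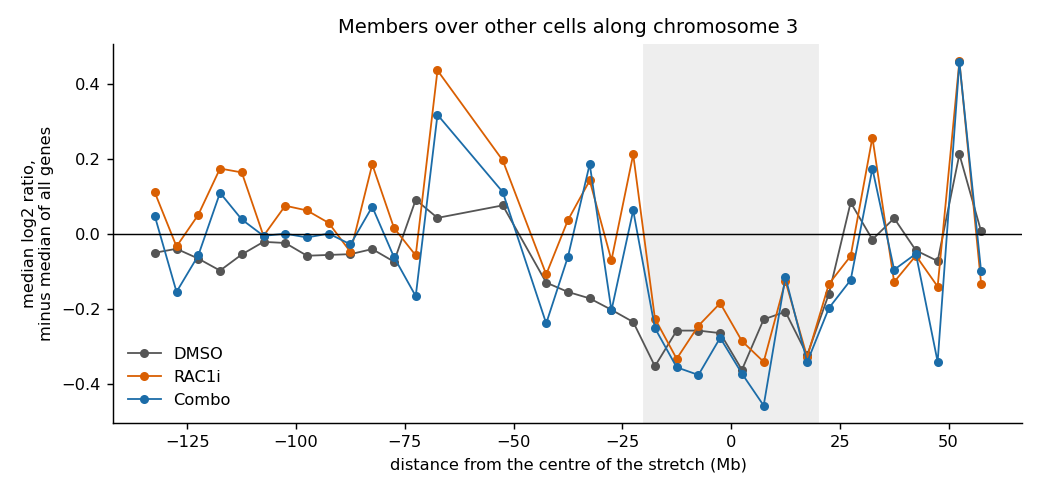
Median log2 ratio of members over other cells in windows of 5 Mb with at least 3 genes along chromosome 3, minus the median of all genes, against the distance from the centre of the stretch in Mb (lines for DMSO, RAC1i and Combo, grey area for the stretch). All 3 lines lie below 0 across the grey area, and those of the treated libraries vary more outside it, with a peak above 0 at the window that holds CLDN1 and CLDN16.

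The share of non-mitochondrial UMIs that came from this stretch was computed for each cell. In members its distribution was uneven, with a hump between 0.5% and 0.8% and 1 or more humps above it, and the least filled step of 0.1% between them began at 1.2% in DMSO, 1% in RAC1i and 0.9% in Combo. A single limit of 0.9% was set after the distribution was seen. A class made this way is a range of a measured share and not a cell type. Cells under this limit made up 36.9% of DMSO members (124 of 336, 95% Clopper-Pearson interval 31.7 to 42.3) and 12.1% of other DMSO cells (11.3 to 13.0). In RAC1i they were 38.0% of members (33.6 to 42.7) and 14.9% of other cells (14.1 to 15.6), and in Combo 42.1% (37.0 to 47.3) and 19.4% (18.4 to 20.3). Cells between 0.8% and 1%, near the limit, were 6.75%, 8.72% and 9.70% of all cells. Seen from the other side, 13.8 of 100 low-share cells were members in DMSO, 11.9 in RAC1i and 10.3 in Combo, compared to 3.64, 3.69 and 3.64 of 100 cells above the limit. Depth was close in both kinds of cell in DMSO, with medians of 29563 UMIs in low-share cells and 28651 in the others, and lower in low-share cells of RAC1i (19776 and 23604) and Combo (21523 and 28865). The median mitochondrial share was 5.75% in low-share cells and 5.96% in the others of DMSO. It was 1.81% and 1.48% in RAC1i, and 1.83% and 1.41% in Combo. DNA copy number was not measured.

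**Figure D4:**
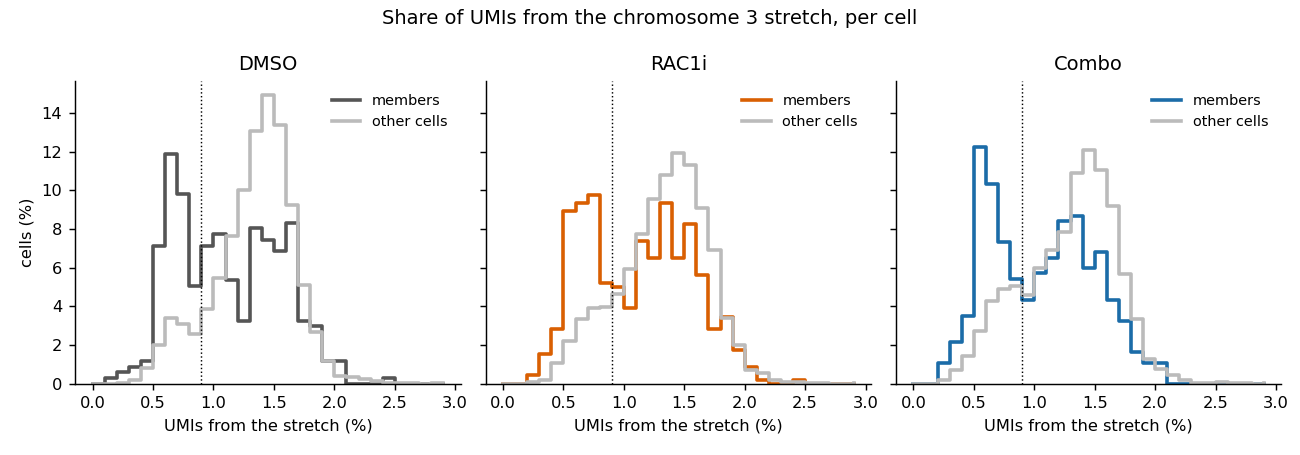
Percentage of members (coloured) and of other cells (grey) of each library by the share of their non-mitochondrial UMIs that came from the chromosome 3 stretch, in steps of 0.1%. The dotted line is the limit of 0.9%, and a larger percentage of members than of other cells lies left of it in each panel, with 36.9%, 38.0% and 42.1% of them left of the line.

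The low share followed the score also below the top 5%. In DMSO it was found in 43.3% of the top 1% of cells, 35.3% of those from 1 to 5%, 33.9% from 5 to 10%, 19.5% from 10 to 25% and 9.20% of the remaining cells. In RAC1i these were 52.2%, 34.5%, 27.4%, 19.9% and 13.0%, and in Combo 45.9%, 41.2%, 37.3%, 28.6% and 16.3%. Most members nonetheless had a share above the limit.

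The genes of members were then read within each kind of cell. Among cells above the limit, 33 of 4691 genes were higher in members in all 3 libraries. They held 27 of the 36 genes, while all 36 kept a ratio above 1. Among low-share cells, 19 of 4504 genes were higher, of which 15 belonged to the 36, and 34 of the 36 had a ratio above 1 in all libraries. The 36 genes were chosen in these same cells, so their recurrence is a description. PLAU had ratios of 4.39, 5.52 and 4.11 above the limit and 3.44, 5.41 and 2.95 under it. TNFAIP3 had ratios of 10.0, 3.40 and 3.45 above it and 3.84, 3.01 and 2.52 under it. The score genes themselves had ratios between 3.33 and 69.6 above the limit and between 2.51 and 52.8 under it. The part of the low-share cells in the other values was not tested.

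CD70 led the genes that were higher in low-share cells, ordered by the library nearest to no change. In low-share cells, whether members or not, it was at 119 CPM in DMSO, 34.2 in RAC1i and 30.1 in Combo, against 41.2, 10.8 and 8.33 CPM in cells above the limit, ratios of 2.89, 3.16 and 3.62. Its ratio of members over other cells was 1.77, 1.95 and 1.82 in all cells, but 1.12 (0.995 to 1.26), 1.45 (1.18 to 1.76) and 1.89 (1.51 to 2.34) above the limit and 1.37, 1.41 and 0.979 under it. UCA1, a long noncoding RNA, and TNFSF9, the ligand of 4-1BB, also led the low-share cells, with ratios of 3.21, 2.33 and 2.44 for UCA1 and 2.29, 3.29 and 3.84 for TNFSF9. PLAU came next, with log2 ratios of 1.03, 1.42 and 1.26, and CLDN1 was also among the leading genes, with 1.04, 0.71 and 0.80. Of the 36 genes higher in members, 7 were over 1.5-fold higher in low-share cells in all libraries, and 28 had a ratio above 1 in all. Within members, the ratio of low-share cells over the others was 3.36, 2.99 and 1.94 for CD70, 3.11, 2.13 and 1.84 for UCA1, 2.78, 2.66 and 2.62 for TNFSF9, and 2.37, 2.97 and 2.16 for AREG. For the score genes, which chose the members, these ratios lay between 0.719 and 1.38 within members and between 1.45 and 4.56 over all cells. Members on the low side of the limit were thus higher in CD70, UCA1 and TNFSF9. AREG was also higher there, but 1 DMSO member held 105 of its 327 UMIs. The DMSO ratio of AREG without that member was not computed.

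Members also differed by which score genes they carried. In DMSO the 94 members with a CXCL8 UMI, compared to the 242 without, had 182 against 41.7 CPM of PLAU (ratio 4.36, 3.79 to 5.02), 174 against 63.1 CPM of CLDN1 (2.76, 2.44 to 3.12) and 210 against 94.6 CPM of CLDN16 (2.22, 1.99 to 2.46), with median depths of 35834 and 29022 UMIs. HES1 went the other way, at 35.6 and 61.3 CPM (0.58, 0.47 to 0.71). In RAC1i, with 321 members with and 139 without a CXCL8 UMI, these ratios were 2.01 for PLAU, 1.90 for CLDN1, 1.66 for CLDN16 and 0.848 for HES1. In Combo, with 198 and 170 members, they were 1.09 (0.905 to 1.32), 1.30, 0.984 and 0.725, so the intervals of PLAU and CLDN16 held 1 there. CCL20 was at 50.8 and 0.845 CPM in DMSO, where few members had any UMI of it, 96.0 and 20.3 CPM in RAC1i, and 73.0 and 29.4 CPM in Combo. The summed level of CCL20 was thus higher in CXCL8-positive members of each library. In DMSO this rested on 10 members with a UMI of CCL20, 1 of them holding 98 of 183 UMIs. AURKA had ratios of 1.07 (0.913 to 1.25), 0.413 (0.337 to 0.505) and 0.732 (0.600 to 0.893). However, 1 RAC1i member held 55 of its 398 UMIs and 1 Combo member held 45 of 408. The ratios without them were not computed. Members were also split by IL6. The 53 DMSO members with an IL6 UMI, against the 283 without, had ratios of 3.57 for PLAU, 3.74 for KLF10, 2.48 for RND3, 2.17 for PLK2 and 5.31 for AREG, and 1 DMSO member held 105 of the 327 AREG UMIs. In RAC1i, with 433 and 27 members of unlike depth (medians of 22517 and 10837 UMIs), these were 2.06, 1.41, 0.898, 1.69 and 1.21. In Combo, with 309 and 59 members (27082 and 15584 UMIs), they were 0.694 (0.539 to 0.905), 2.35, 1.93, 1.38 and 0.666 (0.488 to 0.925). KLF10 and PLK2 were thus higher with IL6 in every library, whereas PLAU and AREG were lower with it in Combo. In DMSO 1 member held 53 of the 312 KLF10 UMIs, and 1 held 114 of the 929 PLAU UMIs. The DMSO ratios of these splits without such members were not computed. CXCL8 and IL6 are score genes that chose the members, so both splits are a description. In every split the members with the UMI also had the larger median depth.

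The levels changed gradually with the score and did not begin at the member limit. For all 20 leading genes the cells ranked from 5 to 10% had a higher level than the cells ranked below 25% in each library, and the level fell at every step from the top 1% downward for 17 of the 20 in DMSO, for 18 in RAC1i and for 16 in Combo. CLDN1 in DMSO was at 184 CPM in the top 1%, 80.0 CPM from 1 to 5%, 53.1 CPM from 5 to 10%, 40.6 CPM from 10 to 25% and 24.1 CPM in the remaining cells. IGFBP2 ran in the opposite order, at 237, 336, 440.4, 523 and 579.8 CPM. NFKBIA in RAC1i had its widest gap lower in the ranks, at 1697, 1607, 1512 and 1406 CPM down to 25% and 840 CPM in the remaining cells. In RAC1i and Combo the NFKBIA levels of members were therefore close to those of cells ranked just below them.

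**Figure D5:**
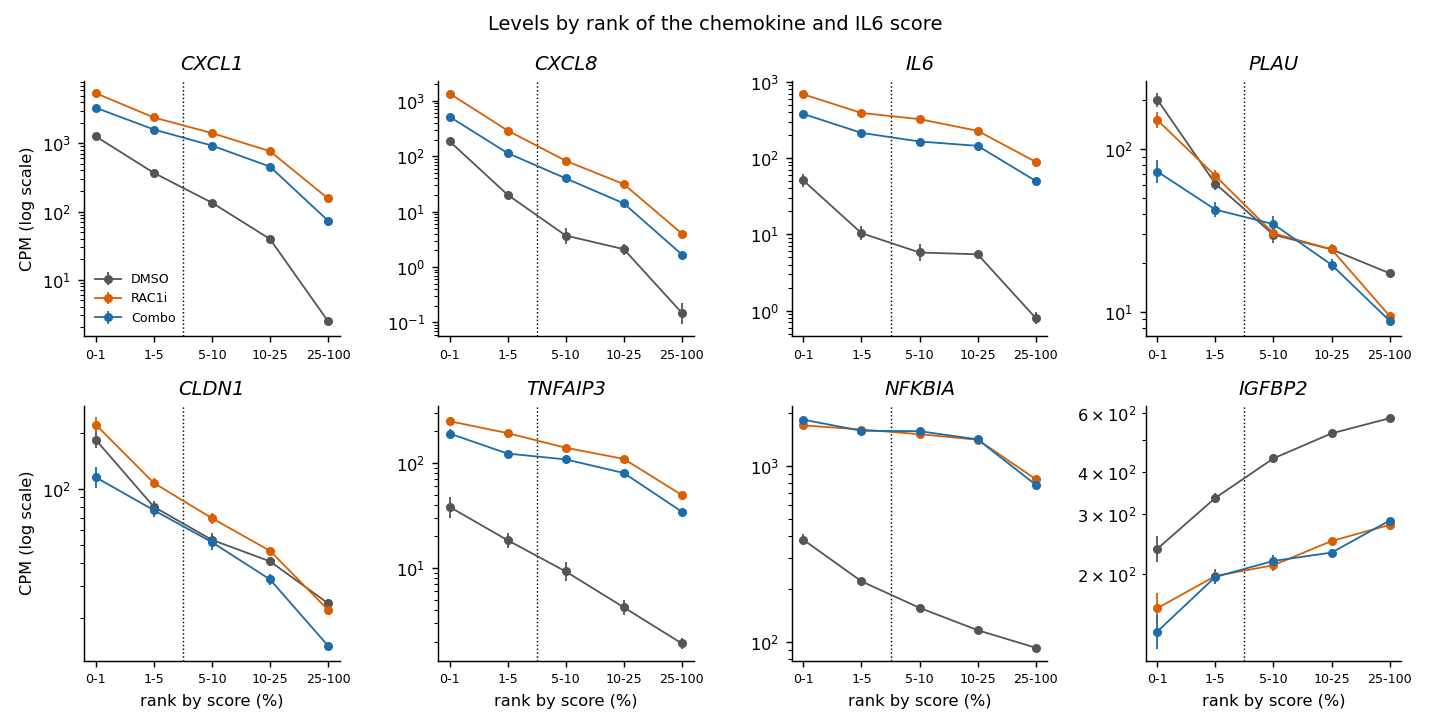
CPM (log axis) of 8 genes in cells grouped by the rank of their score within the library, from the top 1% to the lowest 75%, with exact 95% Poisson intervals (lines for DMSO, RAC1i and Combo, dotted line at the limit of the members). PLAU, CLDN1 and TNFAIP3 fall with rank on both sides of the dotted line, NFKBIA in the treated libraries is nearly level down to 25%, and IGFBP2 rises in DMSO from 237 to 579.8 CPM.

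Members of different libraries were also set beside each other. Each condition was 1 library, so the following ratios have no replicate check. CXCL1 in RAC1i over DMSO was 5.55 in members and 18.8 in other cells, and in Combo over DMSO 3.65 and 9.94. IL6 was 24.9 in members and 63.3 in other cells in RAC1i over DMSO, and 13.9 and 35.5 in Combo over DMSO. TNFAIP3 was 9.19 and 23.0, and 6.20 and 16.0. CXCL1 and IL6 are score genes, so their values in members are a description. EFNA1 was 21.0 in members and 10.3 in other cells in RAC1i over DMSO, and 15.4 and 7.73 in Combo over DMSO. PLAU was 0.962 in members and 0.665 in other cells for RAC1i and 0.558 and 0.597 for Combo, and AREG in members was 1.04 for RAC1i and 1.02 for Combo, but the DMSO members stood at 21.1 CPM in place of 30.9 CPM without the 1 member that held 105 of 327 UMIs. Of the 36 genes, 23 were over 1.5-fold higher in RAC1i members than in DMSO members and 6 over 1.5-fold lower, beside 20.5% and 30.7% of the 4651 genes counted in all libraries. In Combo these numbers were 16 and 10, beside 18.6% and 30.2%. RAC1i and Combo share the DMSO library in these ratios.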

How the data were processed

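Droplet scRNA-seq was read from 3 libraries, DMSO, RAC1i and Combo, each 1 sample with no replicate. The deposited counts are UMI counts per gene and barcode, which the authors made with Cell Ranger 4.0.0 on GRCh38 per the submitters' processing notes. The libraries held 10071, 11772 and 9757 barcodes. Of these, 7531, 10215 and 8239 passed the limits of 1000 genes (more were needed), a mitochondrial share of 20% and a complexity (log10 genes over log10 UMIs) of 0.8, and 6725, 9200 and 7354 also had at least 5000 UMIs. No doublet caller was run and no cell was removed as a doublet.

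UMIs were summed over members and over the other cells of a library and divided by their total (CPM). Member sums held 10583522, 10908274 and 9959329 UMIs. Ratios have exact conditional 95% intervals, CPM exact Poisson intervals and shares Clopper-Pearson intervals, and all cover counting error only. With 1 library per condition no test was made. Counts of higher and lower genes used 1.5-fold and 20 CPM in the higher group and left out the 5 score genes. Named were the 20 highest and 10 lowest genes by the library nearest to no change, 5 leading genes in each direction per library, and members of the 25 gene lists. The members and lists were chosen with earlier results of these data known. The chromosome 3 stretch, the limit on its share and the values without the member with most UMIs were chosen after seeing the data. Alternatives changed the size of the top group, the genes of the score, thinning, filters, weights, the CPM minimum, the fold and the scaling (TMM of edgeR 4.0.16, size factors of DESeq2 1.42.0). Scripts ran on Python 3.11.15 with scipy 1.17.1 and were tested on simulated data. Promoters came from RefSeq (GRCh38.p14) and gene positions from GENCODE 44. Some members of the interferon and MHC class I list are counted but not reported by name here.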

Additional observations from a re-analysis of the deposited data

Results flagged for a closer look

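Cells that passed the other filters but had under 5000 UMIs were left out of the comparisons, and the score genes were present in them. Their summed level was 596.1 CPM in 1015 such cells of RAC1i (95% Poisson interval 570.3 to 622.7) and 341.4 CPM in 885 cells of Combo (320.6 to 363.2), above the 33.4 CPM in 806 cells of DMSO (26.9 to 41.0). These are the control and treated libraries of 1 culture each, so the difference between them has no replicate check.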

How the results depend on the processing

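No paired analysis was possible because each condition was 1 library and no test was made. Of 257 values of counts and shares under other settings, 188 stayed within 1.5 times the main count, or within the interval of the main share, and 69 moved. Of 2155 values of single genes past 1.5-fold, 2154 kept their direction and 2051 stayed past 1.5-fold. The exception was CD70 in Combo, with a log2 ratio of −0.031 within low-share cells. The single genes were those named for their ratios in these same cells, and the score genes. Settings that changed only the CPM minimum or the fold left their ratios unchanged by construction. TMM and DESeq2 scaling moved them by at most 0.07 on the log2 scale. Much of this agreement was therefore fixed in advance. For the moved values the cause was not tested, except where fewer genes, cells or libraries entered by construction.

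From here on, AP-1 genes are those of the list of AP-1 and immediate early factors. That list also holds factors that are not AP-1 subunits, such as KLF10. With the top 2% as members, 153 genes were higher and 38 lower in DMSO, 475 were lower in RAC1i and 4 in all libraries, and low-share cells were 43.3% of members in DMSO and 42.9% in RAC1i. With the top 10%, 53 were higher and 4 lower in DMSO, 123 lower in RAC1i and 22 higher in all, 2 of them AP-1 genes, and low-share cells were 32.7% in RAC1i. With a score without CXCL1, 3 genes were lower in DMSO, 2 AP-1 genes and 1 cytokine were higher in all, and low-share cells were 29.5% in DMSO and 32.3% in Combo. Genes lower in DMSO numbered 5 after thinning, 13 with score and values from separate UMIs, 14 with TMM and 13 with DESeq2 scaling. Either scaling gave 184 genes lower in Combo. The split of higher and lower genes in Combo was thus 194 and 289 by CPM but 238 and 184 by TMM, and in RAC1i 232 and 217 but 260 and 164. With the other cells weighted to the UMIs of members, 174 genes were lower in RAC1i in place of 217, and 209 in Combo in place of 289.

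With a minimum of 50 CPM, 40 genes were higher and 3 lower in DMSO, 130 and 56 in RAC1i, and 111 and 96 in Combo, and 17 were higher in all, with 3 NF-kB, 2 AP-1 and 0 cytokine genes. With no minimum these were 3235 and 1308, 4232 and 2807, 3788 and 3006, and 467 higher and 97 lower in all, with 15 NF-kB, 10 AP-1 and 14 cytokine genes. With a fold of 2 they were 21 and 0, 86 and 10, 61 and 14, and 10 higher in all. These held 3 NF-kB genes, 1 gene of the AP-1 and immediate early list (KLF10) and 1 cytokine gene. Without the DMSO library, 153 genes were higher and 138 lower in the remaining libraries, with 19 NF-kB, 15 AP-1 and 4 cytokine genes. Without the RAC1i library, 4 were lower. In cells with a chromosome 3 share of 0.9% or more, 123 genes were lower in RAC1i and 0 cytokines were higher in all. In cells under it, 380 were lower in RAC1i and 19 higher in all, 3 of them NF-kB genes. With a limit of 0.8%, low-share cells were 32.8% of members in RAC1i and 36.7% in Combo, and with a limit of 1% 44.05% in DMSO and 43.0% in RAC1i.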
